A study of Homo sapiens with 6 samples.

Results

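The 8 genes described here encode the subunits of TRiC, also called CCT, the chaperonin of the cytosol. They are TCP1 and CCT2, CCT3, CCT4, CCT5, CCT6A, CCT7 and CCT8, taken by gene symbol as the members of this complex, and all 8 were found among the 26255 gene symbols of the deposited tables. RNA was sequenced from 6 samples of HCT116, an established cell line from a human colorectal carcinoma. The labels describe 3 samples as positive and 3 as negative for fluorescence of the green protein ZsGreen, and the series title says that the cells were transduced with the degron of ornithine decarboxylase as a model of cancer stem cells. This degron is a protein tail that sends its carrier to the proteasome without ubiquitin. No other treatment, time or genotype separates the groups in the labels, which do not say how the fluorescent cells were obtained, whether each group is a clone, or whether the samples came from separate cultures. The p-values therefore measure only the spread between these samples, which may be technical, and a batch matching the groups, if there was one, cannot be told apart from the fluorescence.

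The chaperonin is a barrel of a pair of stacked rings, and each ring holds all 8 subunits, each encoded by a gene of its own. Newly made proteins enter its cavity and fold there while the subunits bind and hydrolyse ATP. Actins and tubulins are its best known clients, and regulators of the cell cycle such as CDC20 depend on it too. Prefoldin hands such chains to the chaperonin, and phosducin-like proteins act on it as cochaperones. Tumour cells, which divide and make proteins fast, generally express the subunits at high levels.

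Sequence upstream of the genes is shown first, since all 8 were higher in the same samples and several share their start region with another gene. The windows are the 250 bases before each RefSeq start (GRCh38.p14), and 7 of the 8 members matched, with 9 windows, CCT6A being the member with none. The stretches printed are those parts of 3 windows that lie outside every GENCODE exon, 5′ to 3′ on the strand of the gene, with capitals marking the letters of a motif. The TCP1 stretch lies between the exons of TCP1 and those of MRPL18, which starts on the other strand. CCT8 and CCT2 are shown as the subunit genes with the highest and the lowest fold change.

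TCP1, chr6:159789750-159789811, minus strand: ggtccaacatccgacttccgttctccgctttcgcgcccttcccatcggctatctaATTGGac

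CCT8, chr21:29073798-29073898, minus strand: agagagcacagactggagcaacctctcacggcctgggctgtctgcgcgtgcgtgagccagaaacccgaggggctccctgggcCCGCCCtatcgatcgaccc

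CCT2, chr12:69585209-69585333, plus strand: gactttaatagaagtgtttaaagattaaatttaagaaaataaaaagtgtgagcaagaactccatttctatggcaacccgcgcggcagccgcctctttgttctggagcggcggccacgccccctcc

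The capitals mark a CCAAT box read on the other strand in TCP1 and a GC box read on the other strand in CCT8. The CCT2 stretch holds none of the letters searched, but the parts of the CCT2 windows not printed do. Over the whole windows and on both strands, the GC box (GGGCGG) was found in 5 of the 9 windows, against 42.6% of all 35116 promoter windows. The CCAAT box (CCAAT) was found in 4 of 9, against 32.0%. The heat shock element, searched as GAANNTTC or TTCNNGAA, was found in 2 of 9, those of TCP1 and CCT2, against 11.6%. The letters bound by ETS factors (CCGGAA) were found in 2 of 9, against 14.5%. The E-box bound by MYC (CACGTG) was in 0 of 9, against 6.34%. Outside the printed stretches, the CCT2 windows held the letters of all these motifs except the E-box. The unprinted parts held a heat shock element and a GC box for TCP1 and a CCAAT box for CCT8. No matches in these windows overlapped each other, and a match is a description of the letters only.

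Values are FPKM, fragments per 1000 nt of transcript and 1000000 mapped fragments, which allow levels of different genes to be compared. Fold changes are differences of log2(FPKM + 1), positive minus negative, each with its SE. They come from limma fitted over the 12213 genes with a mean of at least 1 FPKM, with Benjamini-Hochberg adjustment over all of them and a threshold of 0.05. Of these genes 59.4% passed, 29.4% higher and 30.0% lower in the ZsGreen-positive libraries, so a call by itself is common here. The 3 libraries of a group all lay on the same side of the other group for 67.6% of tested genes, 33.2% higher and 34.5% lower in the ZsGreen-positive ones. Genes listed at 0 numbered 10314 to 11989 in the ZsGreen-positive and 8985 to 9162 in the ZsGreen-negative libraries. The line's epithelial markers KRT8, KRT18, KRT19 and EPCAM were abundant in all 6 libraries, whereas VIL1 was at most 0.0377 FPKM. Of the 6 tested epithelial markers, 2 rose, 3 fell and 1 did not pass. The cadherin CDH1 averaged 17.4 ± 1.42 in ZsGreen-positive and 49.8 ± 0.455 FPKM in ZsGreen-negative libraries, and KRT8 averaged 1152 ± 63.1 in ZsGreen-positive and 1518 ± 23.5 FPKM in ZsGreen-negative libraries. The 12 markers of leukocytes, endothelium, stroma and red cells summed to 1.09 to 2.89 FPKM in the ZsGreen-positive and 4.11 to 4.65 FPKM in the ZsGreen-negative libraries, with CD3E, DCN and HBB at 0 throughout.

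All 8 subunit genes were higher in ZsGreen-positive than in ZsGreen-negative cells, and for none of them did the groups overlap. All 8 passed the test as higher, where 29.4% of all tested genes did, and their groups lay apart in that direction, as they did for 33.2% of all tested genes. Together they summed to 2436, 2413 and 2427 FPKM in the ZsGreen-positive libraries, against 1471, 1544 and 1538 FPKM in the ZsGreen-negative ones. The sum was thus 1.60 times as high, at 2425 ± 11.6 FPKM in ZsGreen-positive and 1518 ± 40.5 FPKM in ZsGreen-negative libraries (SD, n = 3 each). The two-sided exact permutation p was 0.1, which is the lowest value possible for 3 libraries against 3. The median log2 fold change of the 8 genes was 0.69, beside a median of 0.0040 over all tested genes. Among the 784 tested genes with a mean of at least 100 FPKM, which is the range of the subunits, 42.3% were called higher and the median was 0.046. With quantile normalisation the median of the 8 genes was 0.36, with single genes from 0.044 (CCT2) to 0.62 (CCT6A), and 7 of them passed.

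**Figure D1:**
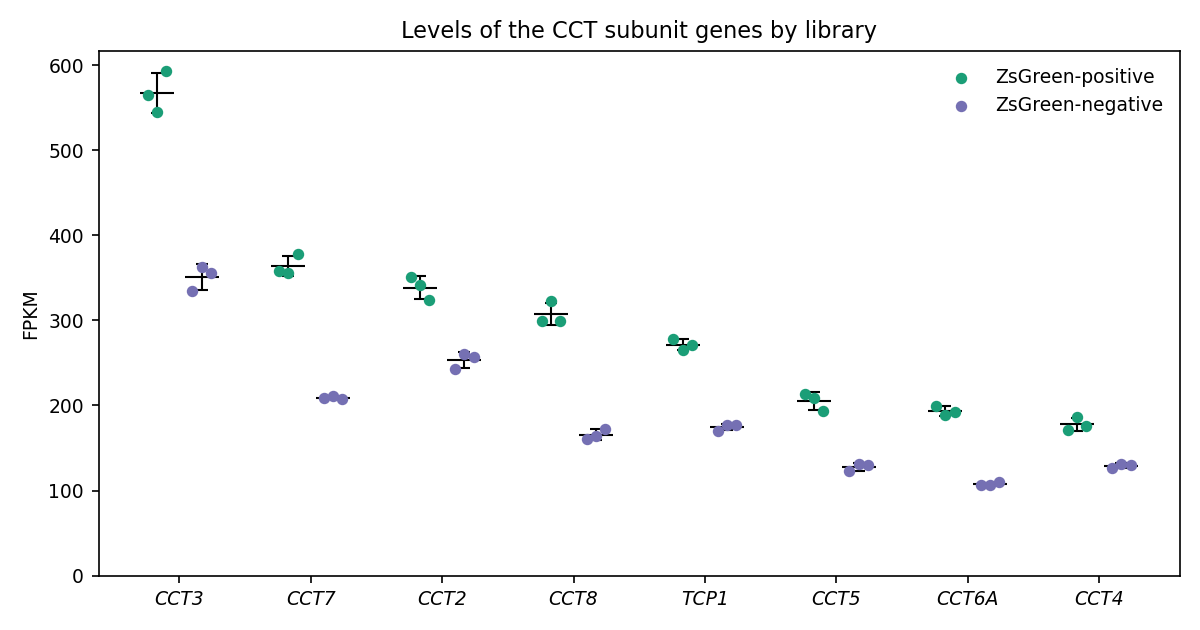
FPKM of the 8 CCT subunit genes in each library (points), with the mean and SD of 3 libraries per group (black bars), ordered by their level in ZsGreen-positive cells. For every gene the 3 ZsGreen-positive libraries lie above the 3 ZsGreen-negative ones, with the narrowest gap at CCT4 (39.1 FPKM) and the widest at CCT3 (181.9 FPKM).

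The largest fold changes belonged to CCT8, CCT6A and CCT7, the theta, zeta and eta subunits. CCT8 had 299.7, 322.6 and 299.7 FPKM in the ZsGreen-positive libraries, against 160.0, 163.7 and 172.8 FPKM in the ZsGreen-negative ones. The lowest positive library lay 126.9 FPKM above the highest negative one, and the log2 fold change was 0.89 ± 0.059 (limma, adjusted p = 1.75e-05).

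CCT6A, whose product carries the name zeta, had 199.4, 188.5 and 192.3 FPKM in ZsGreen-positive libraries, against 106.2, 106.0 and 109.7 FPKM in ZsGreen-negative libraries. Its libraries agreed closely within each group, and the log2 fold change was 0.84 ± 0.052 (limma, adjusted p = 1.25e-05). Its close relative CCT6B, known from testis, was at 2.06, 1.46 and 4.17 FPKM in ZsGreen-positive and 1.85, 1.37 and 2.35 FPKM in ZsGreen-negative libraries, with groups that overlapped and no call. The pseudogenes CCT6P1 and CCT6P3 averaged 4.63 and 3.00 FPKM in ZsGreen-positive and 3.90 and 3.44 FPKM in ZsGreen-negative libraries, and neither passed. Reads of such copies can be split between them, but all 3 rows together were small beside CCT6A.

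CCT7 had 358.2, 355.9 and 377.5 FPKM in ZsGreen-positive libraries, against 208.7, 211.3 and 207.8 FPKM in ZsGreen-negative libraries. The negative libraries differed by a CV of only 0.878%, the smallest of the 8 genes in either group. Its log2 fold change was 0.79 ± 0.051 (limma, adjusted p = 1.53e-05).

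CCT3, CCT5 and TCP1 followed, with fold changes that differed from each other by less than the largest of their SEs. CCT3, the gamma subunit and the most abundant transcript of the set in every library, had 564.8, 545.0 and 592.4 FPKM in ZsGreen-positive libraries, against 333.9, 363.1 and 355.1 FPKM in ZsGreen-negative libraries. The groups lay far apart, and the log2 fold change was 0.69 ± 0.060 (limma, adjusted p = 6.32e-05).

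CCT5, the epsilon subunit, had 213.7, 208.5 and 194.1 FPKM in ZsGreen-positive libraries, against 122.5, 130.7 and 129.9 FPKM in ZsGreen-negative libraries. All positive values were higher, and the log2 fold change was 0.68 ± 0.060 (limma, adjusted p = 6.93e-05). TCP1, which encodes the alpha subunit and gave the complex its name, had 278.3, 264.9 and 271.0 FPKM in ZsGreen-positive libraries, against 170.4, 177.1 and 176.5 FPKM in ZsGreen-negative libraries. Here too the groups did not overlap, and the log2 fold change was 0.63 ± 0.051 (limma, adjusted p = 4.34e-05).

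CCT4 and CCT2 had the smallest fold changes. CCT4, the delta subunit, had 170.6, 186.4 and 176.4 FPKM in ZsGreen-positive libraries, against 126.3, 131.5 and 129.9 FPKM in ZsGreen-negative libraries. The gap between the groups was the narrowest of the set but exceeded the range within either group, and the log2 fold change was 0.46 ± 0.056 (limma, adjusted p = 0.000354).

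CCT2, the beta subunit, had 351.1, 341.1 and 323.6 FPKM in ZsGreen-positive libraries, against 243.2, 260.7 and 256.4 FPKM in ZsGreen-negative libraries. Its log2 fold change was 0.42 ± 0.058 (limma, adjusted p = 0.000639). It passed under 15 of 16 alternative settings, 1 of which keeps ZsGreen-positive replicate 1 alone for its group and takes the spread from the ZsGreen-negative libraries only. The call was lost with quantile normalisation, where the log2 fold change was 0.044 (limma, adjusted p = 0.476). The fold change of CCT2 was higher than that of 72.0% of all tested genes, and that of CCT8 higher than that of 87.9%.

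**Figure D2:**
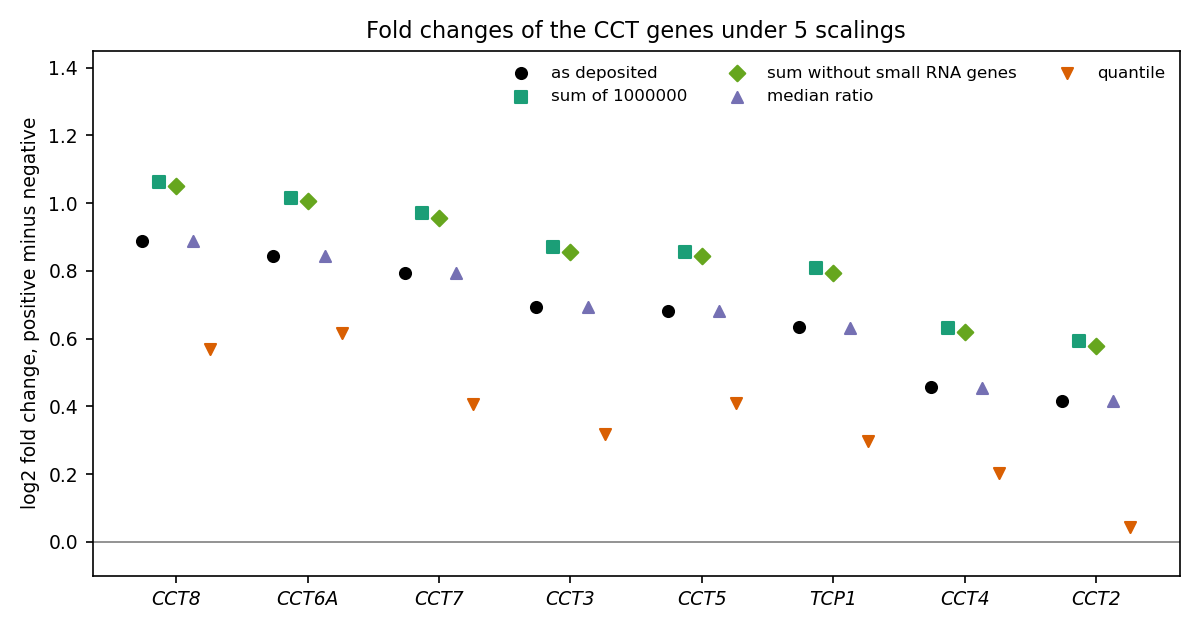
Log2 fold changes of the 8 genes, ZsGreen-positive minus ZsGreen-negative, with the deposited values and with 4 other scalings of the libraries. CCT4 and CCT2 stay at the bottom under all settings shown. CCT8, CCT6A and CCT7 stay at the top except with quantile normalisation, where CCT5 and CCT7 lie together at 0.41. Quantile normalisation lowers all 8 values, that of CCT2 to 0.044.

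The subunits enter the complex in equal numbers, but their transcripts differed in level within each group by about the same factor. The highest subunit transcript was 3.31, 2.92 and 3.36 times the lowest in the ZsGreen-positive libraries, against 3.14, 3.42 and 3.24 times in the ZsGreen-negative ones. These ratios overlapped between the groups. In ZsGreen-positive cells the order was CCT3, CCT7, CCT2, CCT8, TCP1, CCT5, CCT6A and CCT4, where the neighbours CCT5 and CCT6A overlapped in their libraries and all other neighbours lay apart. In ZsGreen-negative cells it was CCT3, CCT2, CCT7, TCP1, CCT8, CCT4, CCT5 and CCT6A, with overlaps between TCP1 and CCT8 and between CCT4 and CCT5.

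The make-up of the set therefore differed between the groups, which is seen in shares of the summed FPKM that no single factor per library can move. CCT2 made up 14.4%, 14.1% and 13.3% of the sum in ZsGreen-positive libraries, against 16.5%, 16.9% and 16.7% in ZsGreen-negative ones. CCT4 made up 7.33% ± 0.366 in ZsGreen-positive and 8.52% ± 0.0686 in ZsGreen-negative libraries (SD, n = 3 each). For TCP1 the shares were 11.2% ± 0.225 in ZsGreen-positive and 11.5% ± 0.0630 in ZsGreen-negative libraries. All 3 of these genes had lower shares in every ZsGreen-positive library. For TCP1 this held only narrowly, with 11.43% in ZsGreen-positive replicate 1 and 11.47% in ZsGreen-negative replicate 2.

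CCT8, by contrast, made up 12.3%, 13.4% and 12.3% in ZsGreen-positive libraries, against 10.9%, 10.6% and 11.2% in ZsGreen-negative ones. CCT7 made up 15.0% ± 0.477 in ZsGreen-positive and 13.8% ± 0.352 in ZsGreen-negative libraries, and CCT6A 7.97% ± 0.191 in ZsGreen-positive and 7.07% ± 0.183 in ZsGreen-negative ones. The shares of CCT8, CCT7 and CCT6A were higher in every ZsGreen-positive library, and those of CCT3 and CCT5 overlapped between the groups. Shares of one whole are not independent of each other, and they are given as a description with no test.

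**Figure D3:**
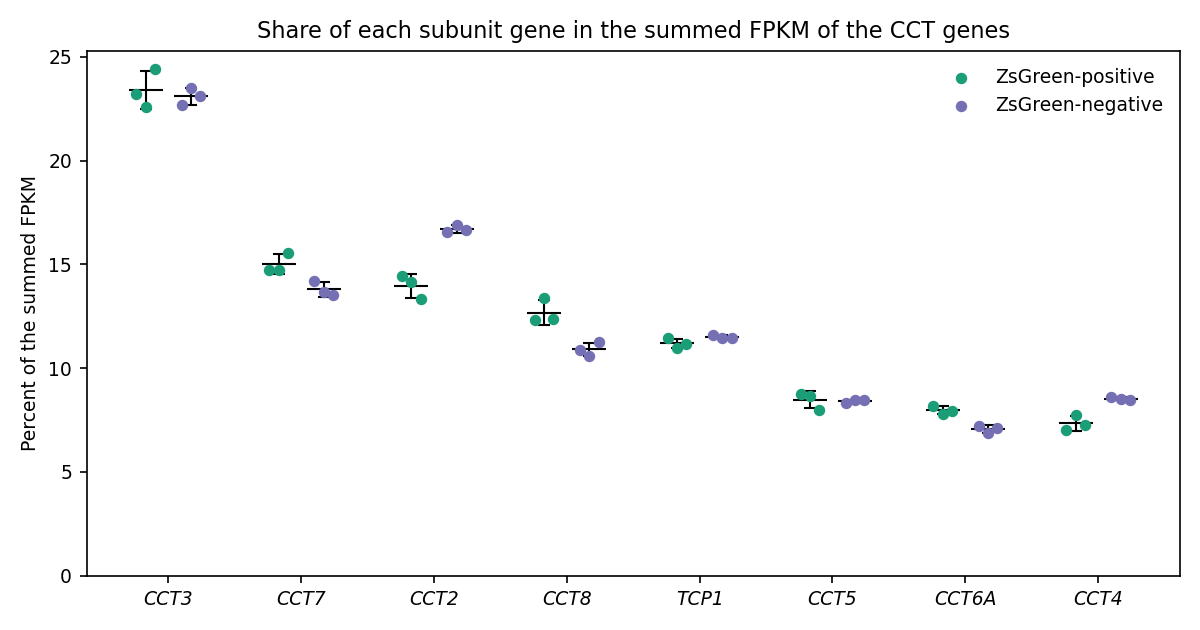
Share of each CCT subunit gene in the summed FPKM of the 8 genes, in percent, by library (points) with the mean and SD of 3 libraries per group. CCT2, CCT4 and, narrowly, TCP1 have lower shares in all ZsGreen-positive libraries, CCT7, CCT8 and CCT6A have higher ones, and CCT3 and CCT5 overlap.

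Several subunit genes adjoin other genes on GRCh38 (GENCODE 29), and all genes that overlap a member or start within 1000 nt of it on the other strand were examined, a search added after the subunits' values were seen. Among protein-coding genes that start head to head with a subunit gene, MRPL18, FAM173B and PRADC1 were higher as well. MRPL18, a mitochondrial ribosomal protein gene beside TCP1, had 81.2, 101.2 and 80.7 FPKM in ZsGreen-positive libraries, against 60.5, 57.2 and 60.3 FPKM in ZsGreen-negative libraries. The groups did not overlap, with a log2 fold change of 0.55 ± 0.095 (limma, adjusted p = 0.00193). FAM173B, beside CCT5, averaged 6.49 ± 1.52 in ZsGreen-positive and 3.44 ± 0.371 FPKM in ZsGreen-negative libraries (limma, adjusted p = 0.00839). PRADC1, beside CCT7, averaged 6.13 ± 0.776 in ZsGreen-positive and 3.65 ± 0.144 FPKM in ZsGreen-negative libraries (limma, adjusted p = 0.00325).

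Other neighbours did not share the direction of the subunit gene. COMMD1, beside CCT4, averaged 21.2 ± 4.46 in ZsGreen-positive and 22.1 ± 3.12 FPKM in ZsGreen-negative libraries and did not pass (limma, adjusted p = 0.723). PSPH, the phosphatase of serine synthesis beside CCT6A, averaged 28.7 ± 4.21 in ZsGreen-positive and 36.5 ± 0.575 FPKM in ZsGreen-negative libraries, a log2 fold change of -0.34 ± 0.11 (limma, adjusted p = 0.0245). That call was lost in 6 of 16 alternatives, among them both rescalings to a common sum. ACAT2, an enzyme of acetyl-CoA metabolism that overlaps TCP1 on the other strand, averaged 57.8 ± 5.87 in ZsGreen-positive and 79.8 ± 2.53 FPKM in ZsGreen-negative libraries (limma, adjusted p = 0.00199), and so fell where TCP1 rose. Whether the counting used strand is not stated in the sources used here, so reads of overlapping genes may have been shared. TSACC, on the other strand from CCT3, was at 2.09, 3.45 and 0 FPKM in ZsGreen-positive and 3.66, 2.94 and 3.07 FPKM in ZsGreen-negative libraries.

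Introns of TCP1 and CCT6A hold small nucleolar RNA genes, whose products guide the modification of ribosomal RNA. SNORA20, within TCP1, was at 2607, 2518 and 3232 FPKM in the ZsGreen-positive libraries and is listed at 0 in all ZsGreen-negative ones. SNORA15, within CCT6A, was at 317.8, 501.3 and 525.8 FPKM in the ZsGreen-positive libraries, and at 124.8, 0 and 0 FPKM in the ZsGreen-negative ones. Both were higher in every ZsGreen-positive library. SNORA29, also within TCP1, was at 8.70, 0 and 0 FPKM in the ZsGreen-positive libraries and is listed at 0 in the ZsGreen-negative ones. FPKM of such short RNAs can be over- or understated, and a listed 0 can be a failed estimate, so no fold is given.

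Prefoldin, the hexamer that delivers actin and tubulin chains to the chaperonin, moved in both directions. Of its 6 genes 3 were called higher, 1 lower and 2 neither, with a median log2 fold change of 0.35. Counts in this and the later lists stand beside all tested genes, of which 29.4% were called higher and 30.0% lower. PFDN2 averaged 71.0 ± 14.7 in ZsGreen-positive and 35.0 ± 4.30 FPKM in ZsGreen-negative libraries, the largest rise of the list (0.99 ± 0.15; limma, adjusted p = 0.0011). PFDN6 averaged 99.3 ± 12.7 in ZsGreen-positive and 61.8 ± 5.80 FPKM in ZsGreen-negative libraries. VBP1, whose product binds the VHL protein, averaged 60.8 ± 4.41 in ZsGreen-positive and 48.5 ± 3.99 FPKM in ZsGreen-negative libraries, a call that was lost without ZsGreen-negative replicate 1 (limma, adjusted p = 0.0578).

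PFDN5, the most abundant prefoldin transcript, had 458.6, 384.7 and 438.9 FPKM in ZsGreen-positive libraries, against 476.5, 528.1 and 519.2 FPKM in ZsGreen-negative ones. The groups lay narrowly apart, at a log2 fold change of -0.25 ± 0.081 (limma, adjusted p = 0.0308), and the call was lost in 7 of 16 alternatives, among them both rescalings to a common sum. Without ZsGreen-negative replicate 2 the adjusted p was 0.112, and without replicate 3 it was 0.104 (limma). The 6 genes summed to 671.9 to 783.2 FPKM in ZsGreen-positive and 675.4 to 747.3 FPKM in ZsGreen-negative libraries. The sums overlapped, unlike those of the chaperonin, but most of each sum was PFDN5, the 1 gene called lower. Of the other genes, 3 were called higher and 2 did not pass.

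Of the phosducin-like cochaperones, the 3 tested genes of 5 did not pass. PDCL3 averaged 22.0 ± 5.0 in ZsGreen-positive and 25.3 ± 0.744 FPKM in ZsGreen-negative libraries, and TXNDC9 averaged 15.6 ± 3.05 in ZsGreen-positive and 14.9 ± 1.40 FPKM in ZsGreen-negative libraries. Their list had a median log2 fold change of -0.13, which became 0.033 after rescaling to a common sum.

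The R2TP complex and its prefoldin-like partners help to assemble large machines such as RNA polymerases, with the help of HSP90. Of these 8 genes 4 were called higher, 0 lower and 4 neither, with a median log2 fold change of 0.58. RUVBL1 and RUVBL2 encode the ring-forming ATPases of the complex. RUVBL2 had 190.9, 191.6 and 193.4 FPKM in ZsGreen-positive libraries, against 72.7, 75.4 and 76.8 FPKM in ZsGreen-negative ones, a log2 fold change of 1.35 ± 0.051 (limma, adjusted p = 1.79e-06). RUVBL1 averaged 124.5 ± 5.58 in ZsGreen-positive and 53.1 ± 2.80 FPKM in ZsGreen-negative libraries. PIH1D1, its adaptor subunit, averaged 74.7 ± 6.21 in ZsGreen-positive and 34.2 ± 1.88 FPKM in ZsGreen-negative libraries, and WDR92 7.39 ± 1.63 in ZsGreen-positive and 4.06 ± 0.335 FPKM in ZsGreen-negative libraries.

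Relatives of the chaperonin moved in both directions, with 3 of 6 tested genes higher, 2 lower and 1 not passing, while with quantile normalisation 1 was higher and 2 were lower. The mitochondrial chaperonin HSPD1 averaged 721.4 ± 2.70 in ZsGreen-positive and 496.0 ± 6.43 FPKM in ZsGreen-negative libraries, a log2 fold change of 0.54 ± 0.049 (limma, adjusted p = 7.56e-05). With quantile normalisation its call was lost (0.096; limma, adjusted p = 0.263). HSPE1, the lid of that chaperonin, had 220.6 ± 12.7 in ZsGreen-positive and 79.3 ± 4.54 FPKM in ZsGreen-negative libraries (1.46 ± 0.069; limma, adjusted p = 4.1e-06). BBS10 and BBS12, chaperonin-like genes of ciliary protein assembly, fell, whereas MKKS, another relative in this list, rose slightly. MKKS averaged 19.2 ± 1.15 in ZsGreen-positive and 16.3 ± 0.405 FPKM in ZsGreen-negative libraries (0.22 ± 0.075; limma, adjusted p = 0.0391). BBS12 averaged 2.29 ± 0.617 in ZsGreen-positive and 4.64 ± 0.399 FPKM in ZsGreen-negative libraries. BBS10 averaged 14.7 ± 3.72 in ZsGreen-positive and 24.6 ± 0.302 FPKM in ZsGreen-negative libraries, and its call was lost after rescaling to a common sum (limma, adjusted p = 0.0537).

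Clients of the chaperonin differed from gene to gene. Of 17 actin and tubulin genes and relatives 9 were called higher, 4 lower and 4 neither, with a median log2 fold change of 0.42. After either rescaling to a common sum, 11 were higher and 2 lower, and with quantile normalisation the median was 0.18. TUBA1B, an alpha-tubulin, had 643.5, 546.8 and 617.8 FPKM in ZsGreen-positive libraries, against 74.4, 71.5 and 70.1 FPKM in ZsGreen-negative ones (3.05 ± 0.073; limma, adjusted p = 3.12e-07). TUBB, a beta-tubulin, averaged 368.1 ± 38.5 in ZsGreen-positive and 113.3 ± 3.12 FPKM in ZsGreen-negative libraries, whereas its relative TUBB2A fell, with 9.30 ± 3.43 in ZsGreen-positive and 30.0 ± 3.41 FPKM in ZsGreen-negative libraries. Tubulin genes resemble each other closely, and values of single tubulins are therefore uncertain.

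The 2 cytoplasmic actins, singled out after their values were seen, moved in opposite directions with the deposited values, and both calls depended on the setting. ACTB averaged 388.8 ± 67.3 in ZsGreen-positive and 288.1 ± 7.97 FPKM in ZsGreen-negative libraries (0.42 ± 0.11; limma, adjusted p = 0.0156). Its call was lost with quantile normalisation and without ZsGreen-negative replicate 3 (limma, adjusted p = 0.0516). ACTG1 averaged 1304 ± 58.1 in ZsGreen-positive and 1494 ± 40.3 FPKM in ZsGreen-negative libraries (-0.20 ± 0.061; limma, adjusted p = 0.0267). That call was lost in 8 of 16 alternatives, among them both rescalings to a common sum, where the log2 fold change was -0.018 and -0.036 (limma, adjusted p = 0.811 and 0.553). It was also lost without ZsGreen-positive replicate 3 and without any single ZsGreen-negative replicate (limma, adjusted p = 0.0559 to 0.116). ACTL6A, an actin-like subunit of chromatin remodellers, averaged 44.3 ± 3.30 in ZsGreen-positive and 21.1 ± 0.940 FPKM in ZsGreen-negative libraries.

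Of 18 tested clients of other kinds 9 were called higher, 4 lower and 5 neither, with a median log2 fold change of 0.32, which was 0.49 after rescaling without small RNA genes. CDC20, the activator of the anaphase-promoting complex, had 75.5, 76.9 and 72.8 FPKM in ZsGreen-positive libraries, against 6.75, 6.90 and 8.45 FPKM in ZsGreen-negative ones (3.19 ± 0.092; limma, adjusted p = 6.56e-07). The mitotic kinase PLK1 averaged 13.8 ± 2.05 in ZsGreen-positive and 1.63 ± 0.253 FPKM in ZsGreen-negative libraries, and cyclin E1 (CCNE1) 13.5 ± 2.98 in ZsGreen-positive and 4.25 ± 0.549 FPKM in ZsGreen-negative libraries. MLST8, a subunit of the mTOR complexes, averaged 22.2 ± 4.87 in ZsGreen-positive and 9.0 ± 0.654 FPKM in ZsGreen-negative libraries. All 10 proliferation markers rose too, with a summed level of 715.8 to 821.2 FPKM in ZsGreen-positive and 149.8 to 161.2 FPKM in ZsGreen-negative libraries and a median log2 fold change of 3.09. AURKB, a mitotic kinase, averaged 37.0 ± 5.17 in ZsGreen-positive and 2.45 ± 0.389 FPKM in ZsGreen-negative libraries. RRM2, for nucleotide synthesis, averaged 69.4 ± 7.6 in ZsGreen-positive and 5.07 ± 0.319 FPKM in ZsGreen-negative libraries. The cell cycle kinase CDK1 averaged 93.4 ± 5.72 in ZsGreen-positive and 8.41 ± 0.349 FPKM in ZsGreen-negative libraries, and BIRC5, which encodes survivin, 62.9 ± 2.68 in ZsGreen-positive and 5.54 ± 0.842 FPKM in ZsGreen-negative libraries. All of these were higher in every ZsGreen-positive library. MKI67 averaged 8.61 ± 0.861 in ZsGreen-positive and 2.34 ± 0.190 FPKM in ZsGreen-negative libraries. The part of this difference in that of the subunit genes was not tested.

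The cofactors that join folded alpha- and beta-tubulin into dimers gave 3 rises, 0 falls and 3 genes not passing of 6, with a median log2 fold change of 0.43, which was 0.22 with quantile normalisation. TBCD averaged 16.3 ± 1.95 in ZsGreen-positive and 6.07 ± 0.558 FPKM in ZsGreen-negative libraries. TBCA averaged 265.0 ± 18.6 in ZsGreen-positive and 173.7 ± 2.28 FPKM in ZsGreen-negative libraries, and the small GTPase gene ARL2 41.1 ± 4.88 in ZsGreen-positive and 20.2 ± 1.54 FPKM in ZsGreen-negative libraries.

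A list of HSF1 and cytosolic chaperones, mainly of the HSP70 and HSP90 systems, moved both ways. Of its 17 genes 6 were higher, 6 were lower and 5 did not pass, HSF1 among the last. These counts lie near the shares of all tested genes, 29.4% higher and 30.0% lower. The split became 8 and 4 after rescaling to a common sum and 4 and 9 with quantile normalisation. The median log2 fold change of the 17 genes was -0.18 with the deposited values and -0.0003 after rescaling to a common sum. HSP90AB1, the constitutive HSP90, averaged 1067 ± 48.9 in ZsGreen-positive and 408.5 ± 8.25 FPKM in ZsGreen-negative libraries (1.38 ± 0.057; limma, adjusted p = 2.54e-06), and its kinase cochaperone CDC37 averaged 207.4 ± 11.3 in ZsGreen-positive and 119.6 ± 5.55 FPKM in ZsGreen-negative libraries. The heat-inducible genes HSPA1B and DNAJB1 fell. HSPA1B averaged 28.99 ± 2.67 in ZsGreen-positive and 114.3 ± 3.27 FPKM in ZsGreen-negative libraries (-1.95 ± 0.078; limma, adjusted p = 2.28e-06), although its near-identical copy HSPA1A can share its reads. DNAJB1, a partner of HSP70, averaged 47.1 ± 5.20 in ZsGreen-positive and 113.5 ± 1.91 FPKM in ZsGreen-negative libraries.

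HSF1, the heat shock transcription factor, known to act on chaperone genes that include those of the chaperonin, had 25.6, 15.9 and 19.0 FPKM in ZsGreen-positive libraries, against 26.6, 25.0 and 23.0 FPKM in ZsGreen-negative ones. The groups overlapped through ZsGreen-positive replicate 1, and the gene did not pass (-0.32 ± 0.16; limma, adjusted p = 0.129). Without that library it was called lower (-0.49; limma, adjusted p = 0.00816), and when it stood alone for its group the log2 fold change was 0.040.

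**Figure D4:**
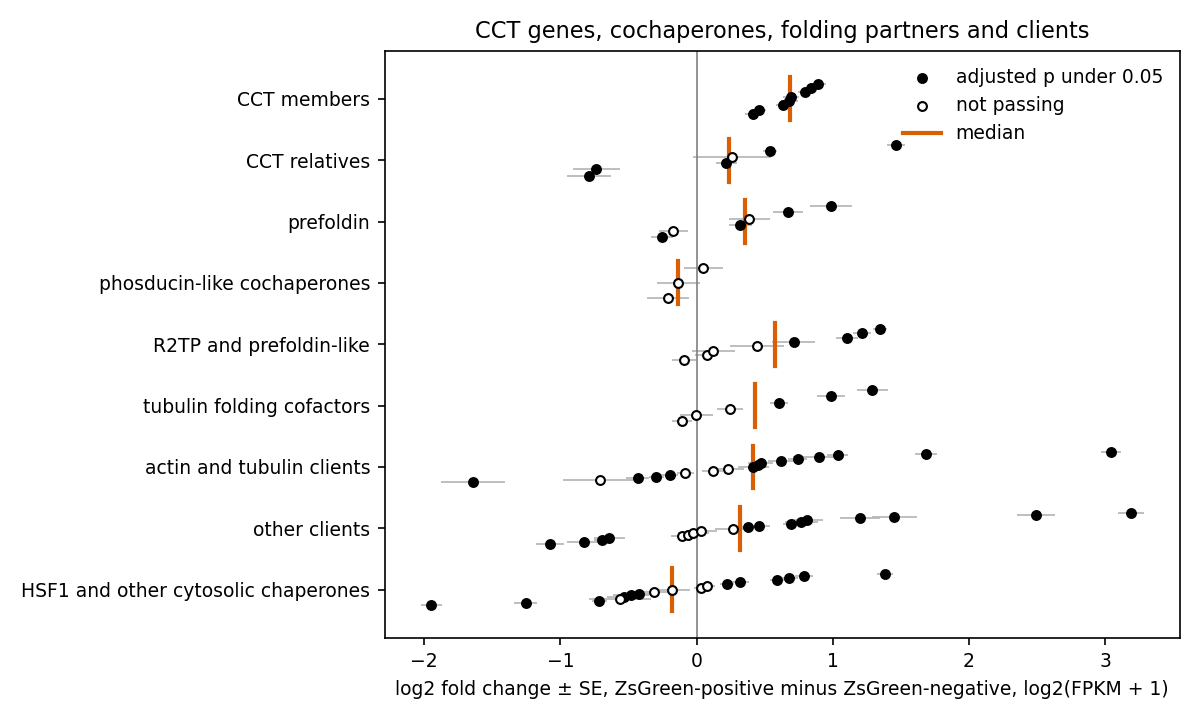
Log2 fold change (ZsGreen-positive minus ZsGreen-negative, with SE) of each tested gene in the CCT set and in 8 lists of related genes, where filled points passed an adjusted p of 0.05 and orange bars mark list medians. The CCT genes form a narrow band from 0.42 to 0.89, while clients range from -1.64 (TUBB2A) to 3.19 (CDC20).

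Over the 6 libraries, the genes outside the set whose centred log2(FPKM + 1) profile lay nearest to the mean profile of the 8 subunits were TCEB2, ADCK3, TRIOBP, PHB2 and STK16. Their root mean square distances were 0.021, 0.025, 0.030, 0.031 and 0.031 on the log2 scale. TCEB2, which encodes elongin B, had 182.8, 187.6 and 186.0 FPKM in ZsGreen-positive libraries, against 112.6, 120.6 and 119.3 FPKM in ZsGreen-negative ones. These 5 were picked for being nearest among all tested genes, so their closeness is a description. TCP1, the nearest subunit, lay at 0.029 and had 2 genes outside the set nearer to the mean profile, while CCT2, the farthest, lay at 0.13 and had 775. All these profiles share the 6 libraries and mainly the step between the groups.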

How the data were processed

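RNA of 6 HCT116 samples, 3 ZsGreen-positive and 3 ZsGreen-negative by their labels, was extracted with TRIzol, purified with the miRNeasy Micro kit and made into TruSeq Stranded mRNA libraries, per the labels' protocols. The authors deposited 1 table of FPKM values per library. The submitters' processing notes name TopHat2 2.1.1, Bowtie2 2.2.8, SAMtools 0.1.18, Cuffdiff 2.2.1 and hg19. The sources used here do not give their settings, the annotation, the strand setting or any scaling between libraries. Plain FPKM divides by a library total, and a change in a few very abundant RNAs can then move every gene. Median ratio scaling instead sets each library by the median of its gene ratios. Its factors ran only from 0.998 (ZsGreen-positive replicate 2) to 1.012 (ZsGreen-positive replicate 1), while summed FPKM ran from 1468235 to 1840483. The deposited values thus already lay close to that scale, where the median log2 fold change of the subunit genes was 0.686. How the values came to lie there was not tested.

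The values are not counts, so limma 3.58.1 (R 4.3.3) was run on log2(FPKM + 1), with a trended prior and two-sided tests. That scale understates changes of low genes. The fit had 4 residual and 3.22 prior degrees of freedom and was checked on simulated data. Sums were compared by exact permutation with SciPy 1.17.1 in Python 3.11.15. The members, lists and tests were chosen with earlier results of these data known. Genes named were the members, their neighbours, the 5 nearest profiles, MKI67, CDK1 and HSF1. From each list up to 4 passing genes with the largest fold change were named or, where none passed, the 2 most abundant. CCT6B, MKKS, ACTB, ACTG1, HSPA1A and the markers of cell type were chosen outside this rule. A sequence comparison of the member proteins was not run.

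Depth was sought in the commonest product of FPKM and length among 2137 genes with 1 transcript of at least 1000 nt. This put ZsGreen-positive replicate 1 at 12200000 fragments, and the ZsGreen-negative libraries at 9390000 to 9770000. ZsGreen-positive replicates 2 and 3 showed no clear step, and their depth is unknown. In the other 4 libraries the lowest subunit gene stood for 995 to 2080 fragments per 1000 nt, a counting error of 2.19% to 3.17%, which covers counting error only. At most 0.45% of tested genes had identical values in any pair of libraries, and all were kept as separate samples.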

Additional observations from a re-analysis of the deposited data

How the results depend on the processing

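All 8 subunit genes kept their direction under 16 alternatives, and all passed under each of them except CCT2 under quantile normalisation, where 7 of 8 passed. In 1 of the 16, ZsGreen-positive replicate 1 stood alone for its group and was assumed to vary like the ZsGreen-negative libraries, and 8817 genes passed, so passing there adds little. The median log2 fold change of the 8 genes, 0.69 with the deposited values, was 0.86 after rescaling each library to a sum of 1000000, 0.85 after rescaling without small RNA genes and 0.36 with quantile normalisation. Both rescalings moved the median of all tested genes, to 0.14 and 0.15, and the share of called genes that were higher to 62.1% and 60.8%, against 49.5% with the deposited values. The ratio of summed FPKM, 1.60, was 1.81 and 1.79 under these rescalings. Leaving out each library in turn gave medians of 0.65 to 0.71 and ratios of 1.57 to 1.61, and 5964 to 7579 called genes against 7258. With replicate number as a block, 6915 genes passed, all 8 subunits among them, and the calls of PFDN5 and ACTG1 were lost. Same-numbered libraries did not deviate together (r across genes -0.030 to -0.021), but with 3 libraries per group this cannot exclude that the samples were paired. HSF1, not called with all libraries, reversed to 0.040 when ZsGreen-positive replicate 1 stood alone for its group. Of 717 results for 45 other named genes, 688 kept direction and side of the threshold. The cause of these shifts was not tested. The unknown depth of ZsGreen-positive replicates 2 and 3 limits what can be said of low genes there.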

Other observations

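In yeast, the subunits that correspond to TCP1, CCT2, CCT4 and CCT5 sit next to each other in the ring and bind ATP with higher affinity than those on the opposite side. Grouped this way after the values were seen, and with no test, TCP1, CCT2, CCT4 and CCT5 had log2 fold changes of 0.63, 0.42, 0.46 and 0.68, and CCT3, CCT6A, CCT7 and CCT8 had 0.69, 0.84, 0.79 and 0.89. The values nearest each other, those of CCT5 and CCT3, differed by less than their SE of 0.060. With quantile normalisation CCT5 (0.4089) lay above CCT3 (0.3188) and CCT7 (0.4078), so the values of these groupings overlapped. The first 4 genes together made up 41.6%, 41.5% and 39.8% of the summed FPKM of the set in ZsGreen-positive libraries, against 45.0%, 45.3% and 45.0% in ZsGreen-negative ones.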
